A study of Mus musculus with 16 samples.

Results

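A set of 10 glutathione S-transferase genes of mouse liver was followed, taken as the rows of the deposited table whose gene symbol was Gsta1, Gsta2, Gsta3, Gsta4, Gstm1, Gstm2, Gstm3, Gstm4, Gstp1 or Gstt1. They are 10 of the 27288 genes in the table: 4 of the alpha class, 4 of the mu class, 1 of the pi class and 1 of the theta class. The study sequenced RNA from livers of C57BL/6 mice aged 8 to 10 weeks in 16 libraries, 4 in each of 4 groups. Wild-type mice (WT) and mice labelled as a liver-specific knockout of Dnm1l (L-Dnm1l KO), the gene of the mitochondrial fission protein DRP1, were either kept as controls or put through Gao-Binge ethanol. That model combines chronic ethanol feeding with a final ethanol binge. The groups were therefore WT control, WT ethanol, KO control and KO ethanol, and what deleted the gene, and whether the controls carried an unrecombined allele, was not given in the sources used here. The design implies a genotype comparison on each diet, an ethanol comparison in each genotype, and a test of whether the ethanol effects differed.

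The libraries held between 11425136 and 13864862 counted reads. Values are given as normalised reads, the authors' read counts divided by a size factor for each library. Dnm1l, the targeted gene, had 663 ± 56.1 normalised reads (SD, n = 4) in the WT control libraries and 642 ± 72.7 in those labelled KO, and on ethanol 743 ± 38.4 and 803 ± 99.3. Its level did not separate the genotypes on the control diet (limma adjusted p = 0.825) or on ethanol (limma adjusted p = 0.59), so it gave no check of the labels, and the part of the gene deleted is not given in the sources used here. KO below means a library labelled as knockout. All 10 hepatocyte markers were above 0 in every library. The KO ethanol libraries 1 and 4 stood apart: 7 pancreatic acinar genes summed to 8158 normalised reads in library 1 against at most 11.4 in any library but that one, and 5 erythroid genes to 6158 in library 4. Dnm1l was 1.25-fold higher with ethanol in KO (limma adjusted p = 0.0421). Results on KO ethanol are given with and without those libraries where that matters.

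Glutathione S-transferases couple the tripeptide glutathione to electrophilic compounds, which makes foreign chemicals and the products of lipid peroxidation more water-soluble and ready for export. The soluble enzymes work as dimers within a class. In liver many alpha and mu genes are known targets of the transcription factor NRF2, which binds antioxidant response elements (ARE) once its inhibitor KEAP1 is modified by electrophiles, and of the xenobiotic receptors CAR, PXR and AHR.

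Several members have near-identical copies, which bears on how reads of 75 bases, the read length given in the labels, could be assigned. In GENCODE M21 transcripts (GRCm38), Gsta1 held only 15.3% of its 75-base windows to itself, since 69.3% also occurred in Gm3776 and 33.8% in Gsta2. Gsta2 held 63.4% to itself, Gstp1 70.8%, Gstm3 78.4%, Gstm1 88.3% and Gstm2 98.2%, while Gsta3, Gsta4, Gstm4 and Gstt1 held all of theirs. Coding bases 151 to 225 of Gsta1, Gstp1 and Gstm1 are shown with the closest stretch of their copies to make this visible, and capitals mark bases that differ from the member named at the start of each set.
Gsta1: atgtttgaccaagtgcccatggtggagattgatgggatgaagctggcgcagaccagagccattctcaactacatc
Gm3776: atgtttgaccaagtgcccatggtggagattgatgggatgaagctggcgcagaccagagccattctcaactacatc
Gsta2: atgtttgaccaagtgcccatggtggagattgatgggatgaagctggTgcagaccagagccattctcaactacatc
Gstp1: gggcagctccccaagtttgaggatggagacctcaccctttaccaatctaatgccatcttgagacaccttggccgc
Gstp2: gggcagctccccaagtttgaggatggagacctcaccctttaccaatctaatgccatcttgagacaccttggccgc
Gstp-ps: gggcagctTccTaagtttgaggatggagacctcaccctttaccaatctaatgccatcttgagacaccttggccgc
Gstm1: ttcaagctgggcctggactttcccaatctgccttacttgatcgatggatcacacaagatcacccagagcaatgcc
Gstm3: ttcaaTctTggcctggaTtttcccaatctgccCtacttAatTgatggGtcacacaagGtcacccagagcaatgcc
Gstm2-ps1: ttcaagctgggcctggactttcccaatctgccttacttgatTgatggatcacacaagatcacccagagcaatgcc
In GRCm38, with the strand in brackets, the first set lies for Gsta1 at chr9:78235941-78236015 (plus), Gm3776 at chr9:78262413-78262487 (plus), Gsta2 at chr9:78337606-78337680 (minus). The Gstp1 set lies for Gstp1 at chr19:4037111-4037185 (minus), Gstp2 at chr19:4041405-4041479 (minus), Gstp-ps at chr1:192074228-192074302 (minus). The Gstm1 set lies for Gstm1 at chr3:108016553-108016910 (minus), Gstm3 at chr3:107967800-107968162 (minus), Gstm2-ps1 at chr5:116633340-116633414 (minus), where those of Gstm1 and Gstm3 run across an intron that is not shown. A read from the Gsta1 stretch matches Gm3776 without a difference, and one from the Gstp1 stretch matches Gstp2 without a difference. Over the whole coding sequence Gsta1 and Gm3776 differed at 2 of 669 bases. The processed pseudogene Gstm2-ps1 on chromosome 5 was nearer to Gstm1 (97.9% identical over 654 bases) than Gstm3 was (89.4%). Gstp-ps, a processed pseudogene on chromosome 1, was 97.6% identical to Gstp1 over 628 bases.

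In GENCODE M21 (GRCm38) the alpha genes are Gsta1 at chr9:78230656-78242684 (plus), Gsta2 at chr9:78331018-78355788 (minus), Gsta3 at chr1:21240589-21265661 (plus) and Gsta4 at chr9:78182774-78209349 (plus). The mu genes lie side by side, Gstm1 at chr3:108012255-108017973 (minus), Gstm2 at chr3:107981702-107986453 (minus), Gstm3 at chr3:107963696-107969283 (minus) and Gstm4 at chr3:108040408-108044894 (minus). Gstp1 and Gstt1 are alone of their class among the members, Gstp1 at chr19:4035407-4037985 (minus) and Gstt1 at chr10:75783813-75798584 (minus). Upstream DNA is shown for 4 members, Gsta1 and Gsta2 because their levels were similar in pattern, Gsta3 because it alone held a match to the ARE core TGACNNNGC and Gstp1 because it alone held an AP-1 match. Other forms of the ARE were not searched, so this does not say that Gstp1 or another member lacks one. The stretches run from 250 to 51 bases before the RefSeq start (GRCm38.p6), 5′ to 3′ on the gene's strand, at chr9:78230419-78230618, plus strand, chr9:78347196-78347395, minus strand, chr1:21240335-21240534, plus strand, and chr19:4037963-4038162, minus strand. Capitals mark the longest run shared by Gsta1 and Gsta2, the ARE match of Gsta3 and the AP-1 match of Gstp1.
Gsta1: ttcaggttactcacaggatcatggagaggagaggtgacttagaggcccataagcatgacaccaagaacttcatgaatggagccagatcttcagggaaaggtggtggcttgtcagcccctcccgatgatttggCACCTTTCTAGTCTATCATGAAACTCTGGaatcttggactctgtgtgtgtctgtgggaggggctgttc
Gsta2: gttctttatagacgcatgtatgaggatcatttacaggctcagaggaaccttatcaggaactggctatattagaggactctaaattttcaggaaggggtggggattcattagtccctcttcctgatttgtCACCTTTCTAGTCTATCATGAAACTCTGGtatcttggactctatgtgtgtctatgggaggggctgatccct
Gsta3: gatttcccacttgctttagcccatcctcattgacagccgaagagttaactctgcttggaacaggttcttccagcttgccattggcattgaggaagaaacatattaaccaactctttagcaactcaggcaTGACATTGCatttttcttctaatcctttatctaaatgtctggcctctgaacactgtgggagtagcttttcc
Gstp1: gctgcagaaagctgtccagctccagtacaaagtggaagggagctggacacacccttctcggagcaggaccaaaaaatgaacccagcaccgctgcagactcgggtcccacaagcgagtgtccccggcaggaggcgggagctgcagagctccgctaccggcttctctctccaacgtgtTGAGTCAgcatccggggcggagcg
The run shared by Gsta1 and Gsta2 was 29 bases long. In windows of 300 bases (250 before to 50 after the start, both strands), the ARE core TGACNNNGC occurred in 1 of the 9 members with a RefSeq window, against 12.4% of 32851 windows over all genes. The AP-1 motif TGANTCA, the site of FOS and JUN dimers, occurred in 1 of 9 members and 7.81% of all windows. The xenobiotic response element core GCGTG occurred in 4 of 9 members and 32.4% of all windows, CCAAT in 6 of 9 and 37.4%, and TATAAA in 2 of 9 and 13.6%. A match describes letters in this window and is not a binding site.

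Most members were higher in KO than in WT livers on the control diet, and most rose with ethanol in WT livers. On the control diet 7 of the 10 members differed between the genotypes, 6 higher and 1 lower in KO, where 11.6% of the 13256 genes tested were called (limma, adjusted p under 0.05), 6.4% higher and 5.24% lower. The 6 were Gsta1, Gsta2, Gstm1, Gstm3, Gstm4 and Gstp1, and the 1 was Gstt1. Ethanol in WT livers raised 8 of 10 members, all but Gsta3 and Gstp1, where 38% of all genes were called, 18.9% higher and 19% lower. Ethanol in KO livers raised 4 of 10 (Gstm2, Gstm3, Gstm4 and Gstt1), where 19.2% of all genes were called, 10.2% higher and 9.01% lower. Between the genotypes on ethanol 2 of 10 were called, Gstm2 and Gstt1, both lower in KO, where 9.88% of all genes were called, 6.13% higher and 3.75% lower. The median member difference was 0.88 (log2) for genotype on the control diet, -0.31 for genotype on ethanol, 1.98 for ethanol in WT and 0.67 for ethanol in KO, while the median over all genes tested was between -0.02 and -0.01 in each of these. These are whole-liver samples, in which fewer cells of a type and less RNA per cell cannot be told apart. The labels do not say that each library is a separate mouse, so the p-values speak only of how these samples vary, which may be technical.

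**Figure D1:**
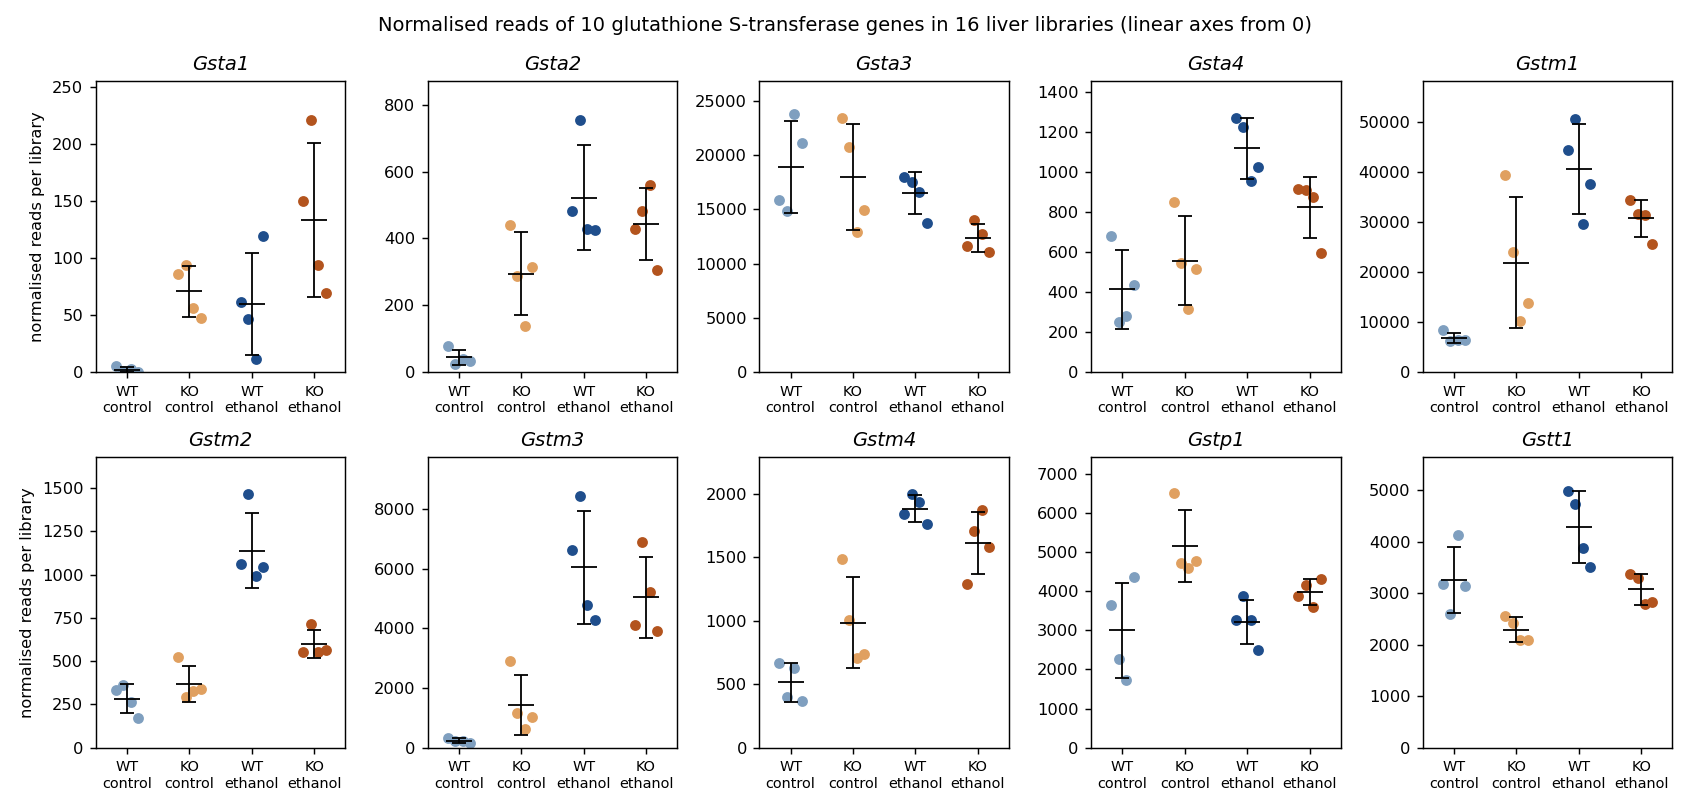
Normalised reads of each of the 10 genes (linear vertical axes from 0) in the 4 libraries of each group, drawn in the order of their library numbers, with the mean and SD as bars. The WT control points of Gsta1, Gsta2, Gstm1, Gstm3 and Gstm4 lie below every point of the other groups. For Gsta3, groups next to each other in mean overlap, but the KO ethanol points lie below every WT control point.

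Genes were compared per kilobase of exon, taken over all annotated exons of a gene (4.344 kb for Gsta3, 1.473 kb for Gstm1). On that scale Gstm1 stood at the top of the 10 members in all 4 groups. It had 4667 ± 696 normalised reads per kb in WT control livers and 27586 ± 6146 in WT ethanol livers. Gsta3 followed in the control groups, at 4357 ± 974 reads per kb in WT control livers, a level that overlapped that of Gstm1. The order in WT control livers depends on these lengths. By reads alone Gsta3 held 56.1% ± 6.45 of the members' reads there and Gstm1 20.7% ± 3.85, while Gstm1 had the larger mean share in the other groups. Gstm3 was seventh of 10 in WT control livers (180 ± 60.1 reads per kb) and stood next to Gstm1 in both ethanol groups, with 4608 ± 1446 reads per kb in WT and 3844 ± 1034 in KO. Gsta1 was last in every group by counted reads, from 2.14 ± 2.23 reads per kb in WT control to 139 ± 70.4 in KO ethanol livers. Only 15.3% of its windows are its own, so its level may be understated if reads matching several genes were left out. Summed over the 10 members per kb, the mu class held 37.8% ± 5.10 in WT control livers, 60.3% ± 8.80 in KO control, 76.8% ± 2.90 in WT ethanol and 75.1% ± 1.47 in KO ethanol livers. The alpha class held 33.4% ± 4.74, 19.5% ± 2.92, 11.97% ± 1.53 and 11.6% ± 0.639 in the same order. By reads alone the alpha class held 57.4% ± 5.89 and the mu class 23.9% ± 4.66 in WT control livers. In the other groups the mu class had the larger mean share by reads too. The summed level itself was 14110 ± 1690 reads per kb in WT control livers, 26464 ± 11954 in KO control, 44041 ± 8681 in WT ethanol and 34608 ± 3429 in KO ethanol livers. These sums are descriptions without a test.

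**Figure D2:**
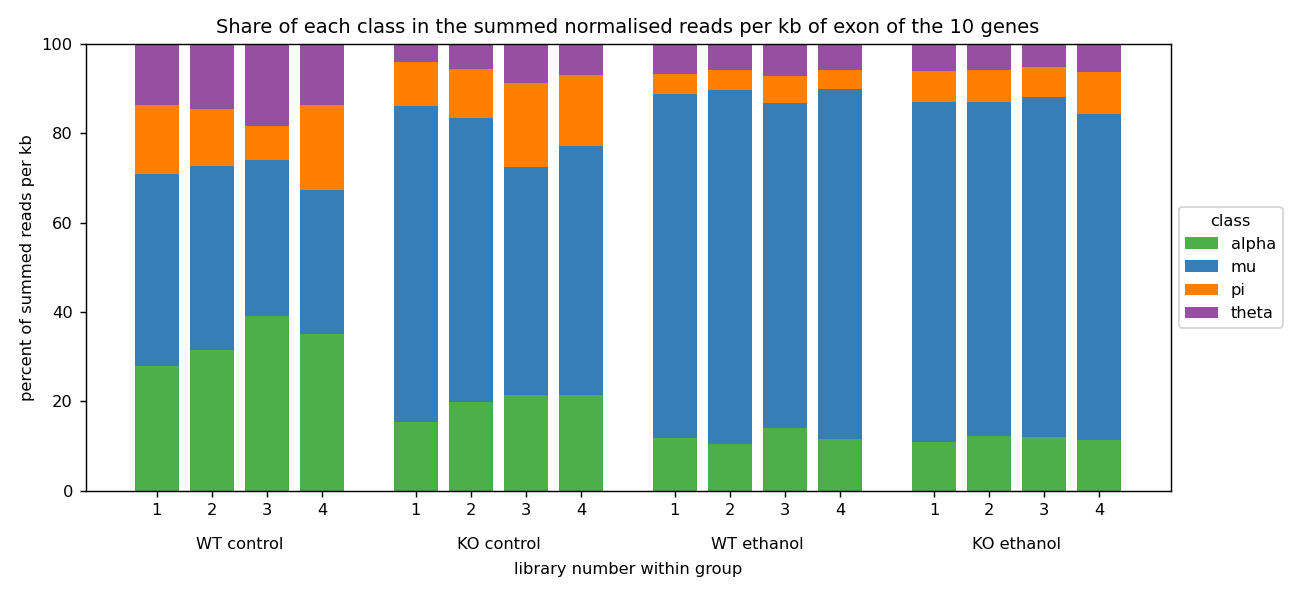
Share of the alpha, mu, pi and theta members (percent, stacked to 100) in the summed normalised reads per kb of the 10 genes, 1 bar per library, 4 libraries per group. The mu share runs from 32.3% to 42.9% in WT control libraries and from 72.7% to 79.2% in WT ethanol libraries.

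Among the alpha genes, Gsta1 and Gsta2, inducible liver enzymes, were near the bottom of the range in WT control livers. Gsta1 had 4.93, 0.994, 2.27 and 0 normalised reads in WT control libraries 1 to 4 and 86.0, 93.7, 56.2 and 47.7 in KO control. With ethanol it had 61.4, 46.6, 11.1 and 119 in WT and 149, 221, 93.4 and 69.3 in KO. Every library of the other 3 groups was above every WT control library, and those 3 groups overlapped one another. On the log2(value + 1) scale Gsta1 was 27.8-fold higher in KO than in WT on the control diet (log2 4.79 ± 0.60 SE, limma adjusted p = 5.13e-05). Ethanol raised it 18.3-fold in WT (log2 4.19 ± 0.60, limma adjusted p = 6.3e-05). The WT control group held 8 Gsta1 reads in all, so the size depends on the added value: the genotype difference was 5.59 with 0.25 added and 3.64 with 4 added.

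Gsta2 had more counted reads than Gsta1 in every group, and a larger part of its sequence is its own. On the control diet it had 77.9, 23.9, 38.6 and 34.3 normalised reads in WT libraries 1 to 4 and 440, 287, 137 and 314 in KO. With ethanol it had 482, 755, 427 and 425 in WT and 429, 481, 559 and 304 in KO. WT control was below the other groups without overlap, and the ethanol groups overlapped. Gsta2 was 6.71-fold higher in KO on the control diet (log2 2.75 ± 0.35 SE, limma adjusted p = 5.13e-05) and rose 12.5-fold with ethanol in WT (log2 3.64 ± 0.35, limma adjusted p = 1.31e-06). In KO the ethanol difference was 0.67 (95% interval -0.06 to 1.40, limma adjusted p = 0.181). Summing Gsta1, Gsta2, Gm3776 and Gm10639 into 1 row sets aside how counted reads were split among them. It cannot restore reads left out of the counts for matching several genes, if any were. In that row the genotype difference on the control diet was 3.09 ± 0.33 (limma adjusted p = 1.07e-05) and the ethanol difference in WT 3.79 ± 0.33 (limma adjusted p = 5.74e-07).

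Gsta3, a constitutive hepatic enzyme known in the mouse for detoxifying the aflatoxin epoxide, was called in no comparison. It had 15907, 14899, 23773 and 21124 normalised reads in WT control libraries and 23447, 20740, 12875 and 14982 in KO control. With ethanol it had 18028, 17580, 16629 and 13754 in WT and 11584, 14001, 12709 and 11057 in KO. All 4 groups overlapped their neighbours in order of mean. KO ethanol had the lowest mean, and all its libraries were below every WT control library. The genotype difference of Gsta3 was -0.09 on the control diet (95% interval -0.48 to 0.31) and -0.42 on ethanol (-0.81 to -0.02, limma adjusted p = 0.182). The ethanol difference in WT was -0.18 (-0.58 to 0.22). The ethanol difference in KO was -0.51 (-0.91 to -0.11, limma adjusted p = 0.0662), and it was called by DESeq2 (adjusted p = 0.0228) and by limma without KO control library 3 (adjusted p = 0.0185). Gsta3 overlaps the antisense gene Gm28836 in GENCODE M21, and the strand setting of the counting is not given in the sources used here.

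Gsta4, which conjugates the lipid peroxidation product hydroxynonenal, had 682, 253, 280 and 438 normalised reads in WT control and 853, 545, 315 and 515 in KO control libraries. Its ethanol libraries had 1270, 1226, 959 and 1025 in WT and 914, 910, 877 and 596 in KO. WT ethanol stood above all other groups without overlap. Ethanol raised Gsta4 2.91-fold in WT (log2 1.54 ± 0.29 SE, limma adjusted p = 0.000618). The genotype difference was 0.46 on the control diet (95% interval -0.16 to 1.07) and -0.45 on ethanol (-1.07 to 0.16), neither called, although the ethanol groups did not overlap.

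In the mu class, Gstm1 is the main hepatic gene. It had 8393, 6145, 6512 and 6446 normalised reads in WT control and 39471, 23956, 10221 and 13790 in KO control libraries. On ethanol, libraries 1 to 4 held 44487, 50739, 29686 and 37625 in WT and 34360, 31577, 31360 and 25704 in KO. WT control was below every other library, and KO control spread widely, its library 1 reaching into the ethanol groups. Gstm1 was 2.80-fold higher in KO on the control diet (log2 1.49 ± 0.30 SE, limma adjusted p = 0.00424) and rose 5.84-fold with ethanol in WT (log2 2.55 ± 0.30, limma adjusted p = 1.09e-05). In KO the ethanol difference was 0.68 (95% interval 0.04 to 1.31, limma adjusted p = 0.122), and without KO control library 1 it was 1.03 and called (limma adjusted p = 0.0104). That library was the highest of its group for 9 of the 10 members, and KO control library 3 the lowest for 7 of 10.

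Gstm3 had the largest fold change with ethanol in WT of the 4 mu genes. Its normalised reads were 341, 221, 231 and 151 in WT control and 2914, 1151, 627 and 1032 in KO control libraries. Ethanol libraries had 6636, 8450, 4783 and 4296 in WT and 4120, 6882, 5231 and 3925 in KO. WT control, KO control and the pair of ethanol groups formed 3 levels without overlap, and the ethanol groups overlapped each other. Gstm3 was 5.34-fold higher in KO on the control diet (log2 2.42 ± 0.36 SE, limma adjusted p = 0.000334), and ethanol raised it 25.6-fold in WT (log2 4.68 ± 0.36, limma adjusted p = 2.18e-07) and 4.04-fold in KO (log2 2.02 ± 0.36, limma adjusted p = 0.00123).

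Gstm2 was called lower in KO than in WT on ethanol. It had 332, 362, 263 and 174 normalised reads in WT control and 523, 291, 327 and 340 in KO control libraries. Its ethanol libraries held 1059, 1463, 993 and 1041 in WT and 552, 717, 550 and 566 in KO. The control groups overlapped, KO ethanol stood above both, and WT ethanol stood above KO ethanol without overlap. Ethanol raised Gstm2 4.12-fold in WT (log2 2.04 ± 0.21 SE, limma adjusted p = 3.27e-06) and 1.64-fold in KO (log2 0.71 ± 0.21, limma adjusted p = 0.0262). On ethanol it was 1.90-fold lower in KO than in WT (log2 -0.92 ± 0.21, limma adjusted p = 0.00952). Without KO ethanol libraries 1 and 4 the genotype difference was -0.84 (limma adjusted p = 0.125) and the ethanol difference in KO 0.80 (limma adjusted p = 0.0925), neither of them called. Singly, the KO ethanol call was lost without KO control library 2 (limma adjusted p = 0.0865), 3 (0.0506) or 4 (0.0551) or KO ethanol library 2 (0.0825).

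Gstm4 had 670, 403, 626 and 370 normalised reads in WT control and 1488, 1008, 704 and 742 in KO control libraries. In the ethanol groups the values were 1841, 2003, 1934 and 1760 in WT and 1289, 1706, 1874 and 1582 in KO. WT control was lowest without overlap, WT ethanol was the tightest group, and KO ethanol overlapped both KO control and WT ethanol. Gstm4 was 1.88-fold higher in KO on the control diet (log2 0.91 ± 0.22 SE, limma adjusted p = 0.0127), a call lost without WT control library 4 (limma adjusted p = 0.0513). Ethanol raised it 3.76-fold in WT (log2 1.91 ± 0.22, limma adjusted p = 8.33e-06) and 1.70-fold in KO (log2 0.76 ± 0.22, limma adjusted p = 0.022). The KO call was lost without KO ethanol libraries 1 and 4, at 0.93 (limma adjusted p = 0.0545), and singly without KO control library 3 or 4 or KO ethanol library 2 or 3.

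**Figure D3:**
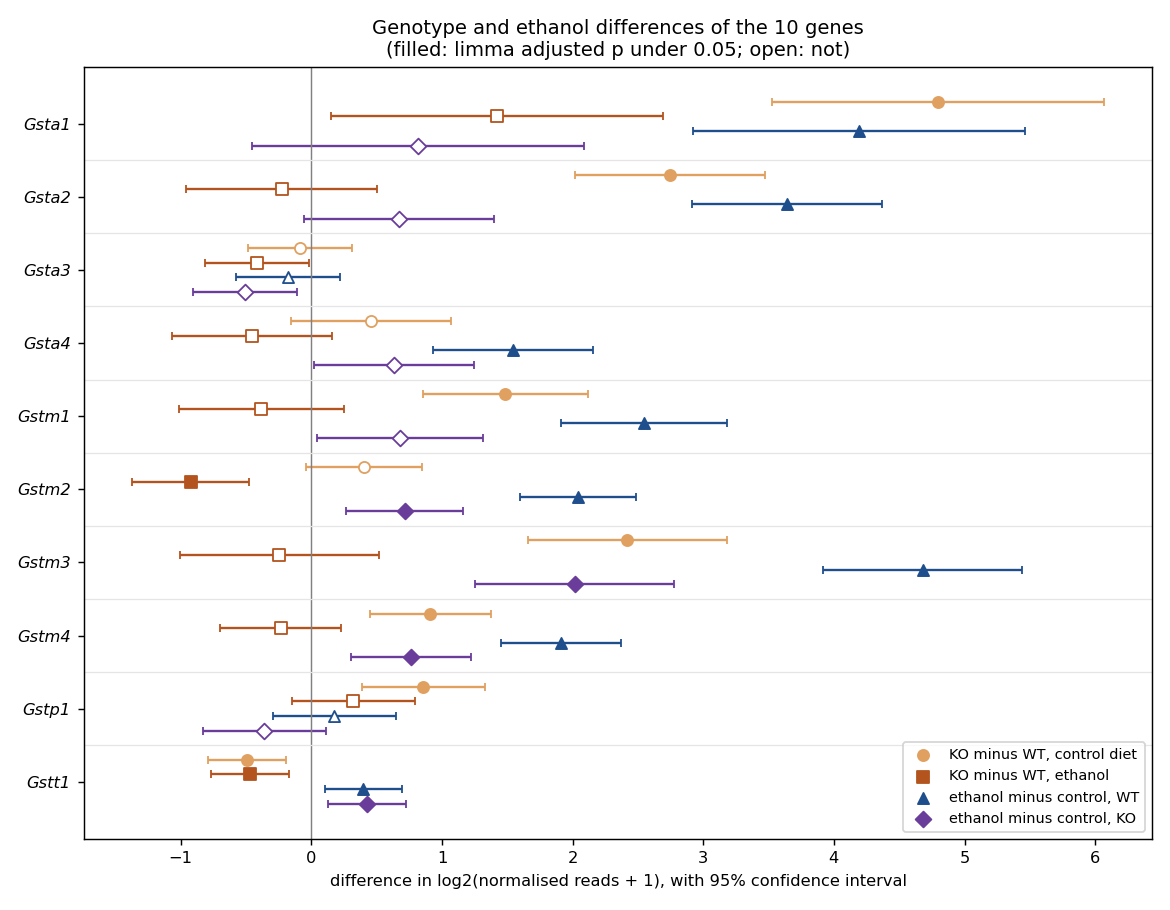
Difference in log2(normalised reads + 1) with its 95% confidence interval (horizontal axis) for each gene and for the 4 comparisons, filled where called. Ethanol in WT lies between 1.54 and 4.68 for the 7 genes Gsta1, Gsta2, Gsta4 and Gstm1 to Gstm4, and at -0.18 for Gsta3, 0.18 for Gstp1 and 0.40 for Gstt1.

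Gstp1, the pi-class gene, had a called genotype difference on the control diet and no called ethanol difference. It had 3636, 2268, 1737 and 4364 normalised reads in WT control and 6517, 4723, 4583 and 4764 in KO control libraries. Under ethanol the reads were 3249, 3870, 3250 and 2491 in WT and 3865, 4145, 3582 and 4321 in KO. KO control was above the other 3 groups without overlap, and those 3 overlapped. Gstp1 was 1.81-fold higher in KO on the control diet (log2 0.86 ± 0.22 SE, limma adjusted p = 0.0197). It no longer passed without WT control library 2 (limma adjusted p = 0.059), WT control library 3 (limma adjusted p = 0.0578) or KO control library 1 (limma adjusted p = 0.0587). The ethanol difference was 0.18 in WT (95% interval -0.30 to 0.65) and -0.36 in KO (-0.83 to 0.11). Summed with Gstp2 and Gstp-ps, the genotype difference on the control diet was 0.90 (limma adjusted p = 0.0193).

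Gstt1, a theta-class enzyme that acts on small halogenated hydrocarbons, was the member lower in KO on both diets. It had 3177, 2588, 4130 and 3132 normalised reads in WT control and 2566, 2412, 2093 and 2087 in KO control libraries. Ethanol libraries gave 4988, 4736, 3870 and 3513 in WT and 3365, 3303, 2798 and 2827 in KO. The genotypes did not overlap on either diet, though the gap on the control diet was small (2588 against 2566). Gstt1 was 1.41-fold lower in KO on the control diet (log2 -0.49 ± 0.14 SE, limma adjusted p = 0.0317) and 1.38-fold lower on ethanol (log2 -0.47 ± 0.14, limma adjusted p = 0.0447). Ethanol raised it 1.32-fold in WT (limma adjusted p = 0.0343) and 1.34-fold in KO (limma adjusted p = 0.0438). All 4 calls lay near the threshold: leaving out single libraries kept each direction but lost the call in 5 of 8 cases for genotype on the control diet, 6 of 8 on ethanol, 5 of 8 for ethanol in WT and 6 of 8 in KO, with adjusted p up to 0.143. Without KO ethanol libraries 1 and 4 both calls that use that group were lost, at -0.48 for genotype on ethanol (limma adjusted p = 0.186) and 0.41 for ethanol in KO (limma adjusted p = 0.177). Within the ethanol groups the genotype difference was -0.54 over libraries 1 and 2 alone and -0.39 over libraries 3 and 4 alone.

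Whether ethanol acted differently in the genotypes was tested as the difference of the ethanol effects. It was called for 2 of the 10 members, Gsta2 and Gstm3, both smaller in KO, where 0.347% of all genes were called (46 of 13256, 0.143% larger and 0.204% smaller in KO, or 24 with the library number as a replicate block). For Gsta2 the ethanol difference was 3.64 in WT and 0.67 in KO, and the difference between them -2.97 ± 0.49 (SE, limma adjusted p = 0.0163). For Gstm3 these were 4.68, 2.02 and -2.66 ± 0.51 (limma adjusted p = 0.0356). The other mu genes gave -1.87 for Gstm1 (95% interval -2.76 to -0.97, limma adjusted p = 0.0725), -1.33 for Gstm2 (-1.96 to -0.69, 0.0725) and -1.15 for Gstm4 (-1.80 to -0.49, 0.121), none of them called. Gsta1 gave -3.38 (-5.17 to -1.58, limma adjusted p = 0.103) and Gsta4 -0.91 (-1.78 to -0.04, 0.347). Gstt1 gave 0.03 (-0.39 to 0.45), Gsta3 -0.33 (-0.89 to 0.23) and Gstp1 -0.54 (-1.20 to 0.13). The difference is also that between the genotype differences on the 2 diets: the KO control libraries already had the higher Gsta2 and Gstm3 levels, while the ethanol groups overlapped.

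The 2 calls depended on single libraries. For Gsta2 the adjusted p was 0.0523 without KO ethanol library 1 and 0.0515 without library 4, and without both the difference was -2.71 (limma adjusted p = 0.225). For Gstm3 the call was lost in 11 of 16 cases of leaving out 1 library, with adjusted p up to 0.101, and without both KO ethanol libraries the difference was -2.38 (limma adjusted p = 0.287). Counted with its alpha copies, the summed Gsta1 and Gsta2 row gave -3.03 ± 0.47 (limma adjusted p = 0.012). With the library number as a replicate block Gstm1 was also called (limma adjusted p = 0.0461). DESeq2 called 6 of 10 members and 270 genes in all. Without WT ethanol library 3, limma also called Gsta1 (-4.01, adjusted p = 0.0147), Gstm1 (-2.01, adjusted p = 0.0328) and Gstm2 (-1.39, adjusted p = 0.0388), and without KO control library 3 Gstm1 (-2.17, adjusted p = 0.0198).

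**Figure D4:**
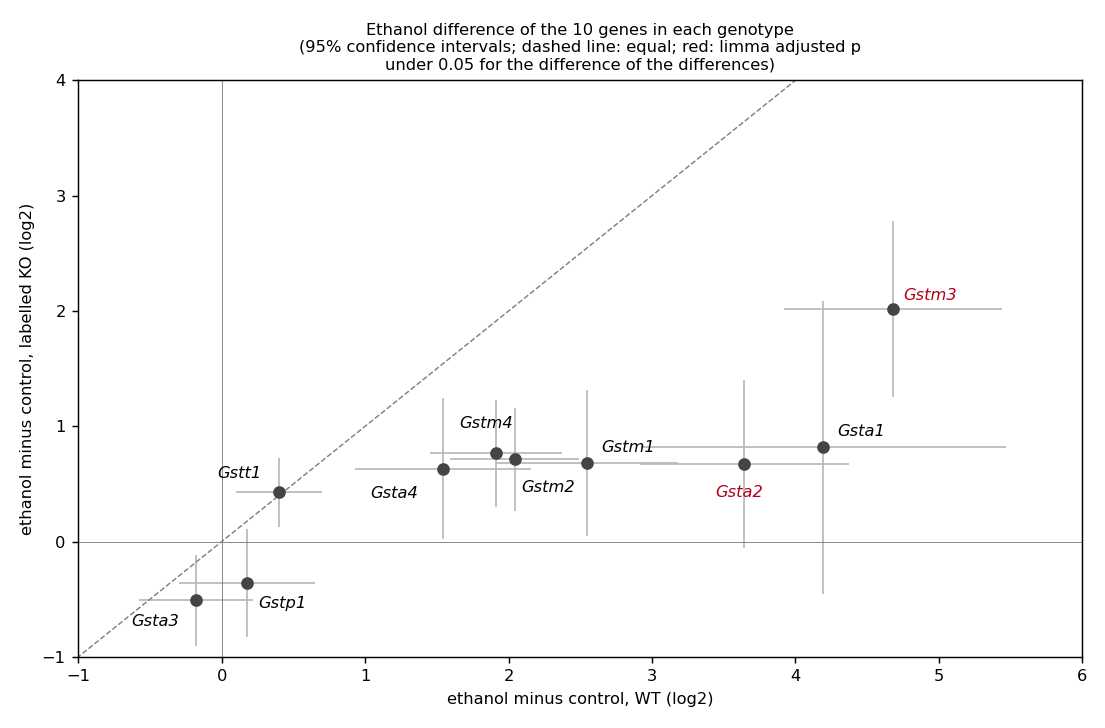
Ethanol difference (log2) in WT (horizontal) against that in livers labelled KO (vertical) for the 10 genes, with 95% confidence intervals and a dashed line of equal effects. The 7 alpha and mu genes that rose in WT lie below the line, with the names of Gsta2 and Gstm3 in red, and Gstt1 lies on it.

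Reads were also counted at the copies. Of the reads counted at Gstp1 and Gstp-ps together, 35.8% ± 1.45 (SD, n = 16 libraries) lay at the pseudogene, with group means between 34.8% and 36.7%. At Gstm1 and Gstm2-ps1 the pseudogene's share was 7.51% ± 0.544, with group means between 7.09% and 8.06%, and Gm8834 took 5.69% ± 0.601 of the reads at Gstm1 and Gm8834. Gstm2-ps1 itself rose 6.61-fold with ethanol in WT (limma adjusted p = 4.57e-06) and was 2.76-fold higher in KO on the control diet (limma adjusted p = 0.00391), beside 5.84-fold and 2.80-fold for Gstm1. Gstp-ps was 1.95-fold higher in KO on the control diet (limma adjusted p = 0.0189), beside 1.81-fold for Gstp1. With Gstm1, Gstm3, Gstm2-ps1 and Gm8834 in 1 row, the ethanol difference in KO was 0.81 (limma adjusted p = 0.0695), not called, beside 0.68 for Gstm1 alone (limma adjusted p = 0.122). Most reads of that row were those of Gstm1, so it is no test of Gstm3. Reads of the parent placed on the copy and transcripts of the copy cannot be told apart in these counts. Gm3776 had 0.740 ± 1.48 normalised reads in WT control livers, 16.9 ± 6.35 in KO control, 22.8 ± 12.5 in WT ethanol and 54.4 ± 6.67 in KO ethanol livers. Gstp2, a protein-coding neighbour of Gstp1, had 4.68 ± 0.779, 31.3 ± 12.1, 38.8 ± 28.4 and 33.6 ± 10.8 in the same order, so the WT control group was below the others, which overlapped.

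**Figure D5:**
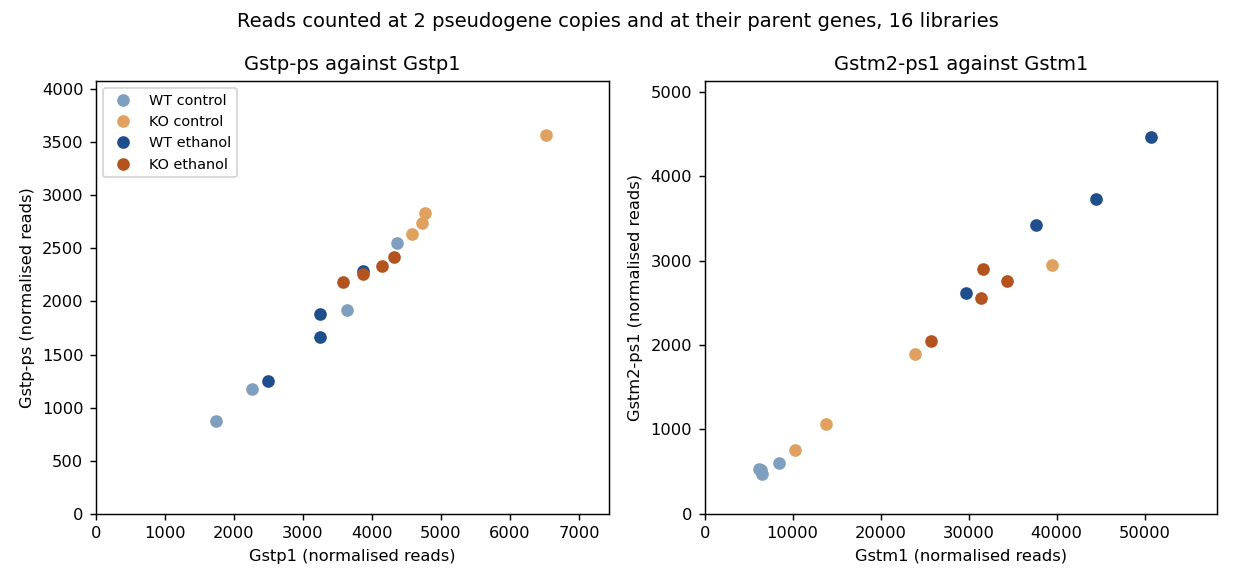
Normalised reads at the processed pseudogenes Gstp-ps (left, vertical) and Gstm2-ps1 (right, vertical) against those at Gstp1 and Gstm1 (horizontal) in the 16 libraries, coloured by group. The points of each panel fall near 1 line through all groups.

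Correlation across the 16 libraries, is given as a description, since the libraries share groups, depth scaling and, for copies, reads. On the log2 scale Gstm1, Gstm3 and Gstm4 correlated with one another at r = 0.95 to 0.97 and with Gsta2 at 0.93 to 0.95. Gsta3 correlated with Gstm1 at -0.19, and Gstp1 with Gstt1 at -0.47. After each group's mean was removed, Gstm1 and Gstm3 still correlated at 0.85, Gsta2 and Gsta4 at 0.88, and Gsta3 and Gstt1 at 0.75. The gene most like each member over the 16 libraries was sought among the genes tested outside the members. It was Cd36 for Gsta1 (r = 0.942), Raet1e for Gsta2 (0.963), Ndufb10 for Gsta3 (0.943) and Prelid2 for Gsta4 (0.932). For the mu genes it was Gstm2-ps1 for Gstm1 (0.996), Gm6665 for Gstm2 (0.964) and Gm8834 for Gstm3 (0.971) and Gstm4 (0.949). For Gstp1 it was Gstp-ps (0.991) and for Gstt1 mt-Nd6 (0.941). Gstm3 and Gstm4 correlated more closely with each other (0.972) than with Gm8834. Outside the members, Nqo1, a quinone reductase and standard NRF2 target, was the second most like gene for Gsta2 (0.950). Ephx1, the microsomal epoxide hydrolase, was the third in that ranking for Gsta2 (0.943) and Gstm1 (0.956).

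Other cytosolic and microsomal transferases, 16 genes of which 15 were in the table, were followed as a list. Of the 12 that passed the filter, 1 was higher and 1 lower in KO on the control diet, 3 rose and 2 fell with ethanol in WT, 2 rose with ethanol in KO and 2 were lower in KO on ethanol, with medians of -0.27, 0.10, -0.03 and -0.09 (log2). Over all genes the shares called in these comparisons were 11.6%, 38%, 19.2% and 9.88%, so 5 of 12 with ethanol in WT and 2 of 12 in KO were near the background. Gstt3, the neighbour of Gstt1, rose 7.96-fold with ethanol in WT (limma adjusted p = 1.09e-06) and 6.16-fold in KO (limma adjusted p = 1.57e-05). On ethanol Gstt3 was 2.30-fold lower in KO (limma adjusted p = 0.0102). Mgst1, a microsomal transferase, was called in no comparison, with 44305 ± 4437 normalised reads in WT control livers and 40609 ± 3701 in WT ethanol livers. Gstm7 was 1.50-fold lower in KO on ethanol (limma adjusted p = 0.00103).

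Around the transferases, genes of glutathione synthesis, recycling and peroxidases were called higher in 5 of 16 and lower in none in KO on the control diet (median 0.44), and 5 rose and 3 fell with ethanol in WT (median 0.23). Over all genes 6.4% were called higher in KO on the control diet, and 38% were called with ethanol in WT. Slc7a11, the cystine importer that feeds glutathione synthesis, had 0.260 ± 0.519 normalised reads in WT control livers, 45.0 ± 15.96 in KO control, 8.89 ± 2.77 in WT ethanol and 123 ± 28.8 in KO ethanol livers. Glutathione reductase Gsr was 1.41-fold higher in KO on the control diet (limma adjusted p = 0.0107) and glutathione synthetase Gss 1.48-fold higher (limma adjusted p = 0.0117). With ethanol in KO 3 of the list rose and 2 fell (median -0.12), where 19.2% of all genes were called. Gclm, the modifier subunit of the enzyme that starts glutathione synthesis, fell 1.61-fold with ethanol in KO (limma adjusted p = 0.0011). Its normalised reads were 3270 ± 114 in KO control and 2033 ± 203 in KO ethanol livers. In WT they were similar, 3268 ± 245 in control and 2202 ± 472 in ethanol livers, also without overlap.

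Of 16 genes of conjugate export and mercapturate formation that passed the filter, 5 rose and 2 fell with ethanol in WT and 6 rose and 3 fell in KO, with medians of 0.09 and 0.23. The shares of all genes called there were 38% and 19.2%, so the 7 of 16 in WT were near the background. Abcc4, an export pump, rose from 15.04 ± 1.42 to 344 ± 54.0 normalised reads in WT (21.3-fold, limma adjusted p = 2.03e-09) and from 47.4 ± 10.9 to 236 ± 75.3 in KO (4.77-fold, limma adjusted p = 6.52e-06). The difference of its ethanol effects, KO minus WT, was -2.16 (log2, limma adjusted p = 0.0105). Among genes outside the members, the Abcc4 profile was the second most like Gstm4 (r = 0.946). Nat8f1 fell in both genotypes, 4.19-fold in WT (limma adjusted p = 2.47e-07) and 3.15-fold in KO (limma adjusted p = 7.11e-06).

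Among 16 NRF2 targets outside the glutathione genes, 9 were higher and none lower in KO on the control diet, 8 rose and 4 fell with ethanol in WT, and 2 rose and 4 fell with ethanol in KO, with medians of 0.77, 0.35 and -0.22. The shares of all genes called in these comparisons were 11.6%, 38% and 19.2%. Nqo1 was 3.44-fold higher in KO on the control diet (limma adjusted p = 2.02e-06), and the difference of its ethanol effects was -1.65 (log2, limma adjusted p = 0.0105). Of 16 regulators of transferase transcription, 1 was higher and 1 lower in KO on the control diet and 6 rose and 3 fell with ethanol in WT, beside 11.6% and 38% of all genes called. Ppara, a lipid-sensing nuclear receptor, was 2.13-fold lower in KO on the control diet (limma adjusted p = 0.00431) and fell 2.89-fold with ethanol in WT (limma adjusted p = 6.74e-05). On ethanol 2 of the 16 regulators were lower in KO and none higher, near the 9.88% of all genes called there. Ahr, the aryl hydrocarbon receptor, was 1.55-fold lower (limma adjusted p = 0.043), though its ethanol groups overlapped (805 to 1763 normalised reads in WT, 510 to 843 in KO). Bach1, a repressor at antioxidant response elements, was 1.68-fold lower without overlap (limma adjusted p = 0.00877).

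Some markers of liver zones and other cell types also differed between the groups. Pericentral hepatocyte markers, genes of the zone around the central vein, were lower in KO in 5 of 12 (1 higher) on the control diet and in 6 of 12 on ethanol, with medians of -0.47 and -0.68, while 3 rose with ethanol in WT. Over all genes 5.24% were called lower in KO on the control diet and 3.75% on ethanol. With ethanol in WT 18.9% of all genes were called higher, so 3 of 12 was near the background. Of 11 periportal markers, 1 was higher and 1 lower in KO on the control diet, near the 11.6% of all genes called, and 3 were higher on ethanol, where 6.13% of all genes were. The summed level of 11 Kupffer cell and macrophage markers ran from 2012 to 5335 normalised reads in WT control, 889 to 1330 in WT ethanol, 4923 to 6630 in KO control and 4060 to 5381 in KO ethanol libraries, with all 11 above 0 throughout. The sum of 7 endothelial markers ran from 1284 to 1664 in WT control and 2161 to 2555 in WT ethanol libraries, and from 1201 to 1879 in KO control and 1924 to 2392 in KO ethanol. For 6 stellate cell markers these ranges were 2564 to 3086, 3716 to 4117, 2359 to 3287 and 3394 to 3744. Both sums were higher with ethanol in each genotype without overlap, as were most members' levels in WT, and all of these markers were above 0 in every library. The sum of 8 cholangiocyte markers overlapped between all groups, from 505 to 1219 over the libraries. The sum of 10 hepatocyte markers ran from 1747047 to 2066751 in WT control and from 1450360 to 1556620 in KO control libraries. On the control diet it was thus lower in KO without overlap. The ethanol groups overlapped, at 1630536 to 2275914 in WT and 1276536 to 1863858 in KO. The part of these shifts in the transferase differences was not tested.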

How the data were processed

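RNA-seq of 16 mouse liver libraries was deposited as 1 table of read counts that the authors had divided by a size factor for each library, a signal on a normalised-read scale. Alignment used HISAT2 2.1.0.13 to GRCm38, with HTSeq and edgeR, per the submitters' processing notes. Neither the annotation release nor the strand setting nor the size-factor tool was given in the sources used here. Whole read counts were recovered from the deposited values (100% whole within 0.01 read), giving 11425136 to 13864862 reads and size factors of 0.814 to 1.263. These factors equalled median-of-ratios factors of the recovered counts to within 6.8e-11. Of 27288 gene identifiers, 55 had no symbol.

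Values were tested as log2(value + 1) with limma 3.58.1 in R 4.3.3 on all 16 libraries, over 13256 genes with a mean of at least 10, with Benjamini-Hochberg adjustment at 0.05. Fold changes are on this scale, which understates those of low genes. Alternatives were other added values and filters, no variance trend, only the groups compared, a replicate block, TMM factors, edgeR 4.0.16 and DESeq2 1.42.0 on the recovered counts, summed copies and left-out libraries. edgeR called 1525 genes for genotype on the control diet, 1281 on ethanol, 5013 for ethanol in WT, 2679 in KO and 30 for their difference. Leaving out KO ethanol libraries 1 and 4, taking ethanol libraries 1 and 2 or 3 and 4 alone, and summing Gstm1 with Gstm3 were chosen after seeing the data. Scripts were tested on simulated data. No pair of replicates was alike within counting noise, so none was merged, which does not show that they are separate animals.

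Same-numbered libraries of the ethanol groups deviated together (r = 0.102 to 0.246 over genes). Some differently numbered ones did so as well, such as WT 1 with KO 2 (r = 0.176) and WT 4 with KO 3 (0.199). Libraries 1 or 2 of a group against 3 or 4 of the other gave -0.0762 to -0.250. From the data alone, pairing by number cannot be told apart from a split of libraries 1 and 2 from 3 and 4. The replicate block is therefore only an alternative. What a number stands for is not in the labels. Members and gene lists were chosen with earlier results of these data known. All 10 members, their copies and up to 4 called genes of each list with the smallest p in each comparison were named. So were the genes outside the members most like each member by Pearson's r. Mgst1 was named after its values were seen. RefSeq promoter windows were matched for 9 of the 10 members.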

Additional observations from a re-analysis of the deposited data

Results flagged for a closer look

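In 40 groups of 4 libraries (10 genes in 4 groups), 6 had a library far from the other 3 by Dixon's test, which chance flags in about 1 in 20 groups. Gsta2 had 755 normalised reads in WT ethanol library 2, above the others of its group. Gstm2 had 1463 in that same library and 717 in KO ethanol library 2, each the highest of its group. Gstm1 had 8393 in WT control library 1 and Gstp1 had 6517 in KO control library 1, each the highest of its group. Gsta4 had 596 in KO ethanol library 4, the lowest of its group and 1 of the libraries that stood apart by its erythroid genes.

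The difference of the ethanol effects was called for Gsta2 (-2.97, log2, KO minus WT) and Gstm3 (-2.66). Neither call held without KO ethanol libraries 1 and 4 (limma adjusted p = 0.225 for Gsta2 and 0.287 for Gstm3). Leaving out 1 library lost the Gstm3 call in 11 of 16 cases and the Gsta2 call in 2 of 16.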

How the results depend on the processing

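Of 1045 comparisons of a member's result with its value under an alternative, 959 kept direction and side of the threshold, 73 lost the call, 13 gained it and 0 reversed, and 32 of the 50 results never changed their call. For genotype on ethanol, the number of members called was 1 in place of 2 with no filter, no trend, only the groups compared, edgeR or TMM factors, and 0 without KO ethanol libraries 1 and 4 or with libraries 1 and 2 or 3 and 4 alone. For genotype on the control diet it was 4 in place of 7 with only the groups compared. For ethanol in KO it was 1 in place of 4 without KO ethanol libraries 1 and 4. For the difference of the ethanol effects it was 1 in place of 2 with no trend, 6 with DESeq2 and 0 without KO ethanol libraries 1 and 4. Leaving out 1 library gave 0 to 5 members for that difference, 1 to 5 for ethanol in KO, 7 to 8 for ethanol in WT, 5 to 7 for genotype on the control diet and 1 to 2 on ethanol. Calls over all genes moved as well. Under the other settings they numbered 1244 to 1924 for genotype on the control diet and 434 to 1704 on ethanol. For ethanol they numbered 4168 to 5150 in WT and 1003 to 3028 in KO. With 1 library left out the ranges were 922 to 1360, 848 to 1685, 4251 to 5026 and 1745 to 2947 in the same order. Over all genes the difference was called for 46 genes, 16 with no trend, 30 with edgeR, 270 with DESeq2 and 8 to 215 with 1 library left out. Causes were not tested. With the library number as a replicate block it was called for 3 members and 24 genes, and the block changed no other member's call than that of Gstm1. Low counts limit Gsta1, with 8 reads in the WT control group, and only 15.3% of its windows are its own.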
